A study of Mus musculus with 24 samples.

Results

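The hearts compared here carried 1 of 2 cardiac transgenes that act at neighbouring steps of the same signalling chain. The 6 arrays labelled GLY, from mice with the human beta1-adrenergic receptor in its Gly389 form, were set against the 6 arrays labelled AC5, from mice with human AC5, the type 5 adenylyl cyclase. These are 12 of the 24 arrays of the series, and the members of the comparison are all 45037 probe sets that are not Affymetrix controls. Both transgenes were human cDNAs driven by the alpha-myosin heavy chain promoter, which directs expression to cardiac myocytes, so each group is a model of overexpression in 1 cell type of the heart. The RNA was total RNA of the heart of mice aged 90 days. The other 12 arrays, 6 of non-transgenic hearts (NTG) and 6 of hearts with the Arg389 form of the receptor (ARG), entered the fit for the spread between hearts and are quoted for single genes. The labels call the 6 arrays of a genotype biological replicates, and they do not give the genetic background or the number of founder lines.

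The beta1-adrenergic receptor is the main catecholamine receptor of the ventricular myocyte. Through the G protein Gs it switches on adenylyl cyclase, of which type 5 is a major cardiac form, and the cyclic AMP that is made activates protein kinase A and, through CREB, transcription of immediate early genes. Myocytes that make more protein, or fold it less well, draw on other programmes: ATF4 switches on enzymes of serine, asparagine and mitochondrial one-carbon metabolism and aminoacyl-tRNA synthetases, the unfolded protein response raises chaperones of the endoplasmic reticulum, and HSF1 raises the heat shock chaperones.

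Among the largest differences between the hearts were enzymes of amino acid and folate metabolism (Asns, Phgdh, Mthfd2), the protocadherin Pcdh17 and the phospholipase Plcd1, all higher in AC5, with Bex1 lower and Pclo and Fos higher in GLY. At an adjusted p under 0.05 (limma, Benjamini-Hochberg over all probe sets), 312 of 45037 probe sets (0.693%) were called, 115 higher in GLY (0.255%) and 197 lower (0.437%). The 312 covered 242 named genes, 91 higher and 151 lower in GLY, while 27 of the probe sets had no gene symbol and 6 had several. Of these 312, 142 differed by at least 1.5-fold and 46 by at least 2-fold, 15 higher and 31 lower. The values of the 6 GLY and 6 AC5 hearts did not overlap at 448 probe sets (0.995%), of which 186 were among the 312. The 12 largest rises and 12 largest falls named below were taken from called probe sets without overlap. For these genes the lack of overlap follows from the choice and is no further evidence. All values below are log2 of a ratio, read as relative to the non-transgenic level, so 1 is a 2-fold rise. The median of each NTG array was near 0, but single probe sets could lie off it. At a probe set of Aqp4 all 6 NTG hearts lay below 0, from -0.31 to -0.02. The median difference over all probe sets was 0.02, with a median SE of 0.0992. The number of calls depended on single hearts: it was 157 without GLY replicate 3, 168 without AC5 replicate 2, 199 without AC5 replicate 6, 205 without AC5 replicate 1, 207 without AC5 replicate 5 and 583 without GLY replicate 6.

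**Figure D1:**
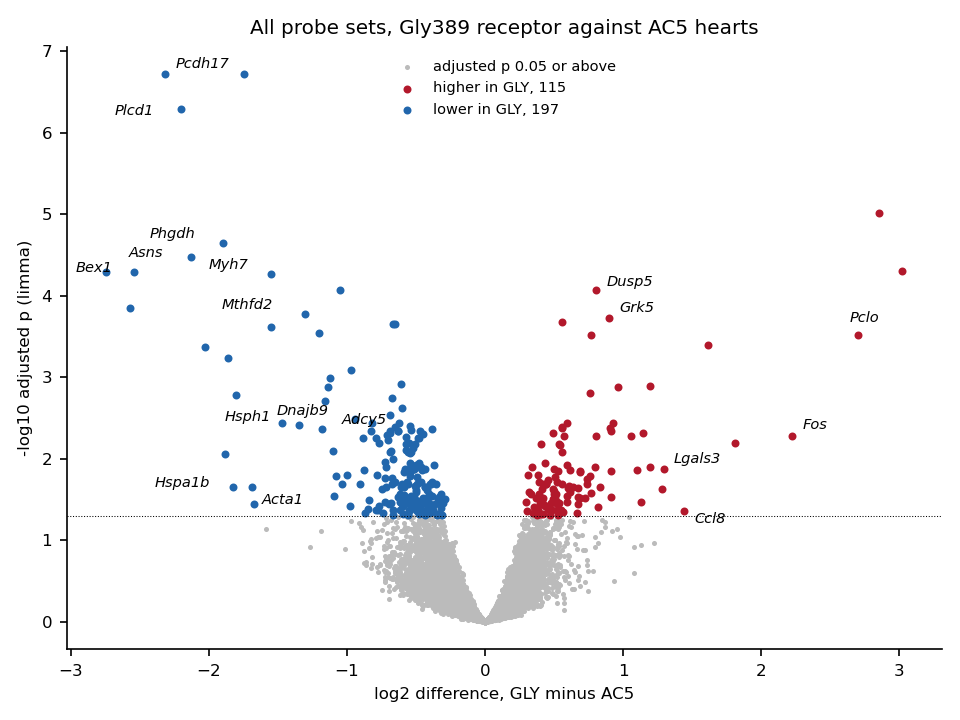
Difference between GLY and AC5 hearts (x axis, log2, positive where GLY is higher) against -log10 of the adjusted p from limma (y axis) for each of 45037 probe sets, 6 hearts per genotype. The dotted line is adjusted p = 0.05; the 115 red points are higher and the 197 blue points lower in GLY, with Pcdh17, Plcd1, Asns and Phgdh among the points farthest from the rest.

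2 GLY hearts, replicates 1 and 3, stood apart by array weight and by a Y-linked gene. The array weights that limma estimates were 0.354 for GLY replicate 1 and 0.312 for GLY replicate 3, the 2 lowest of the 24 arrays, and the medians of these arrays were 0.09 and 0.04. Their deviations from the GLY mean correlated with each other over probe sets (r = 0.49). GLY replicates 4 to 6 also correlated among themselves (r from 0.20 to 0.46), and negatively with replicates 1 and 3 (r from -0.72 to -0.40). Deviations from a mean cancel out over the 6 hearts, so part of such a negative correlation is built in. No such value is given for replicate 2 (array weight 0.568). The Y-linked gene Eif2s3y was at -2.40 and -2.25 in replicates 1 and 3 and between -0.78 and 0.03 in the other 4 GLY hearts. Xist lay between -0.36 and 0.04 in all 6. Without these 2 hearts 221 probe sets were called, 102 higher and 119 lower in GLY. Of 77 probe sets followed through each alternative, Myh6 among them, all kept their direction without these hearts, and 22 lost the call. The mean SD between hearts was 0.221 in GLY, 0.155 in AC5, 0.143 in NTG and 0.192 in ARG, so that GLY was on average the most variable genotype. With the 12 GLY and AC5 arrays fitted alone, 126 probe sets were called, and 34 of the 77 followed lost the call. Cardiac muscle cell markers such as Myh6, Tnnt2, Tnni3, Myl2 and Ryr2 were measured on the arrays, none of the 10 was called between the genotypes, and their median difference was -0.02. The ratios hold no signal level, so the abundance of a marker could not be checked.

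Adcy5, the mouse gene for the transgene's enzyme in AC5 hearts, was read by 4 probe sets, and 1 of them separated the genotypes. At that probe set GLY hearts lay from -0.42 to 0.05 (median -0.07) and AC5 hearts from 0.31 to 0.54 (median 0.40). No GLY heart reached the AC5 range, and the difference in Adcy5 was -0.54 ± 0.09 (log2 ± SE, 6 hearts of each genotype, limma, adjusted p = 0.00444). The change in AC5 against NTG was 0.41 ± 0.09 and was not called (adjusted p = 0.0813). The other 3 probe sets differed by 0.02, 0.06 and 0.05. How each probe set matches the human cDNA was not tested, so this is a weak check of the label. Myh6, whose promoter drives both transgenes, was not called (-0.19 ± 0.20, adjusted p = 0.776), and the sign of its difference turned with array weights (0.022) and without GLY replicate 2 (0.000787).

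Few genes of the receptor and cyclic AMP pathway were called. Of 50 measured genes of this list, at 1 probe set per gene, 1 was higher in GLY (Pde4b), 1 was lower (Adcy5 itself) and 48 were not called, with a median of -0.00 beside 0.02 over all genes. Over the 18193 genes read this way, 0.857% were called, 0.357% higher and 0.5% lower. Pde4b, a phosphodiesterase that breaks down cyclic AMP, lay from 0.20 to 0.64 in GLY (median 0.42) and from -0.48 to 0.08 in AC5 (median -0.02). It was higher in GLY in all 6 hearts than in any AC5 heart, by 0.55 ± 0.10 (adjusted p = 0.00683), at 1 of its 6 probe sets. Grk5, a kinase that desensitises agonist-bound receptors, lay from 0.57 to 1.48 in GLY (median 1.01) and from 0.02 to 0.18 in AC5 (median 0.09) at a probe set outside the list, chosen after its values were seen. The groups did not overlap, and the difference was 0.90 ± 0.12 (adjusted p = 0.00019). The listed probe set of Grk5 gave 0.51 ± 0.16 and was not called (adjusted p = 0.15). Against NTG, Grk5 rose by 1.00 ± 0.12 in GLY, with 0.10 ± 0.12 in AC5, which was not called. Gnb3, a G protein beta subunit named after its values were seen, differed by -0.67 ± 0.11 (adjusted p = 0.00181, or 0.185 after quantile normalization), with values from -1.14 to -0.46 in GLY and -0.47 to 0.01 in AC5. Against NTG, 2286 of all probe sets were called in GLY (5.08%), 696 higher (1.55%) and 1590 lower (3.53%), and 64 in AC5 (0.142%), 31 higher (0.0688%) and 33 lower (0.0733%). These comparisons share arrays with that of GLY and AC5, so values against NTG are set side by side only.

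A few genes of amino acid synthesis differed by a large amount, and were lower in GLY than in AC5. Of 36 measured genes of the ATF4 and amino acid list, 5 were lower in GLY, 0 were higher and 31 were not called. Among all genes 0.5% were called lower. The median difference was -0.22, 30 of the 36 were below 0, and the median came to -0.08 in replicates 1 to 3 alone and to -0.34 in the other 3 replicates. Asns makes asparagine. In GLY hearts Asns lay from 0.33 to 1.28 (median 0.66) and in AC5 hearts from 1.43 to 3.70 (median 2.97). At this probe set every AC5 heart was above every GLY heart. The difference was -2.13 ± 0.25 (adjusted p = 3.38e-05), a 4.37-fold lower level. The other Asns probe set gave -2.74 ± 0.34, with overlap (GLY up to 2.13, AC5 from 1.95). Asns was the amino acid gene with the largest difference, and its promoter is shown because it holds the letters of the ATF4 element. The window covers 150 bases upstream of the RefSeq start (GRCm38.p6, chr6:7693210-7693359, minus strand), written 5′ to 3′ along the gene with the match in capitals.
Asns: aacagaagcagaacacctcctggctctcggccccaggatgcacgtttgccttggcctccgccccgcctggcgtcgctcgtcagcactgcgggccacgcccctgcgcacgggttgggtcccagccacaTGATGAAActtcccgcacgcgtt

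The ATF4 element was searched as TGATGNAA on both strands. It was found 23 bases before the start of Asns, in 1 of the 4 called list genes with a window (Asns, but not Phgdh, Mthfd2 or Iars), and in 3.45% of 32851 promoter windows of 250 bases. A match of letters describes the sequence and does not show that the factor binds.

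Phgdh, the first enzyme of serine synthesis, lay from 0.25 to 0.85 in GLY (median 0.40) and from 0.94 to 2.87 in AC5 (median 2.64). At this probe set the genotypes were apart in all hearts, and the difference was -1.90 ± 0.22 (adjusted p = 2.23e-05). All 4 Phgdh probe sets were called lower, with differences from -1.90 to -0.49, but at the others the ranges overlapped. The probe set of Phgdh that counts in the list is the one with the smallest difference (-0.49 ± 0.12, adjusted p = 0.043). That call was lost without any of GLY replicates 2, 4, 5 and 6 and AC5 replicates 1, 2, 3, 5 and 6 (adjusted p from 0.051 to 0.109). Mthfd2, a mitochondrial folate enzyme, lay from 0.12 to 0.50 in GLY (median 0.25) and from 0.71 to 2.33 in AC5 (median 1.59). It too separated all hearts at this probe set, with a difference of -1.30 ± 0.17 (adjusted p = 0.000166). Its second probe set gave -2.57 ± 0.34, with overlap (GLY up to 1.90, AC5 from 1.73). Against NTG, the AC5 hearts carried these changes: Asns rose by 2.92 ± 0.25, Phgdh by 2.33 ± 0.22 and Mthfd2 by 1.57 ± 0.17. The GLY values against NTG were 0.79 ± 0.25, 0.43 ± 0.22 and 0.27 ± 0.17, and none was called (adjusted p from 0.0632 to 0.445).

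2 aminoacyl-tRNA synthetases of the list were lower in GLY. Iars, which charges the tRNA of isoleucine, lay from -0.52 to -0.03 in GLY (median -0.27) and from -0.02 to 0.77 in AC5 (median 0.37), a difference of -0.69 ± 0.13 (adjusted p = 0.0083). Lars, for leucine, lay from -0.72 to -0.24 in GLY (median -0.49) and from -0.12 to 0.15 in AC5 (median 0.02), a difference of -0.47 ± 0.08 (adjusted p = 0.00464). Neither pair of groups overlapped, but the sides differed: against NTG, Lars fell by 0.46 ± 0.08 in GLY and was 0.01 ± 0.08 in AC5. 3 enzymes outside the list or its probe set were named after their values were seen. Aldh1l2, a mitochondrial folate enzyme, differed by -1.05 ± 0.13 (adjusted p = 8.52e-05), with GLY hearts from -0.70 to -0.33 and AC5 hearts from -0.05 to 1.11. Gpt2, which makes alanine, differed by -0.68 ± 0.13 (adjusted p = 0.0081). Aldh18a1, of proline synthesis, differed by -0.74 ± 0.18 at 1 of 5 probe sets, and Xpot, a tRNA exporter, by -0.68 ± 0.16. The Aldh18a1 call was lost without any of GLY replicates 1, 2, 4 and 5 and AC5 replicates 1, 2, 3, 5 and 6 (adjusted p from 0.0545 to 0.125). The Xpot call was lost without any of GLY replicates 1 to 4 and AC5 replicates 2, 3, 5 and 6 (adjusted p from 0.0501 to 0.0969). Other genes of the list gave differences without a call: Slc7a5, a transporter of large neutral amino acids, -0.89, Atf5 -0.88, Psat1 -0.60 and Atf4 itself -0.07.

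**Figure D2:**
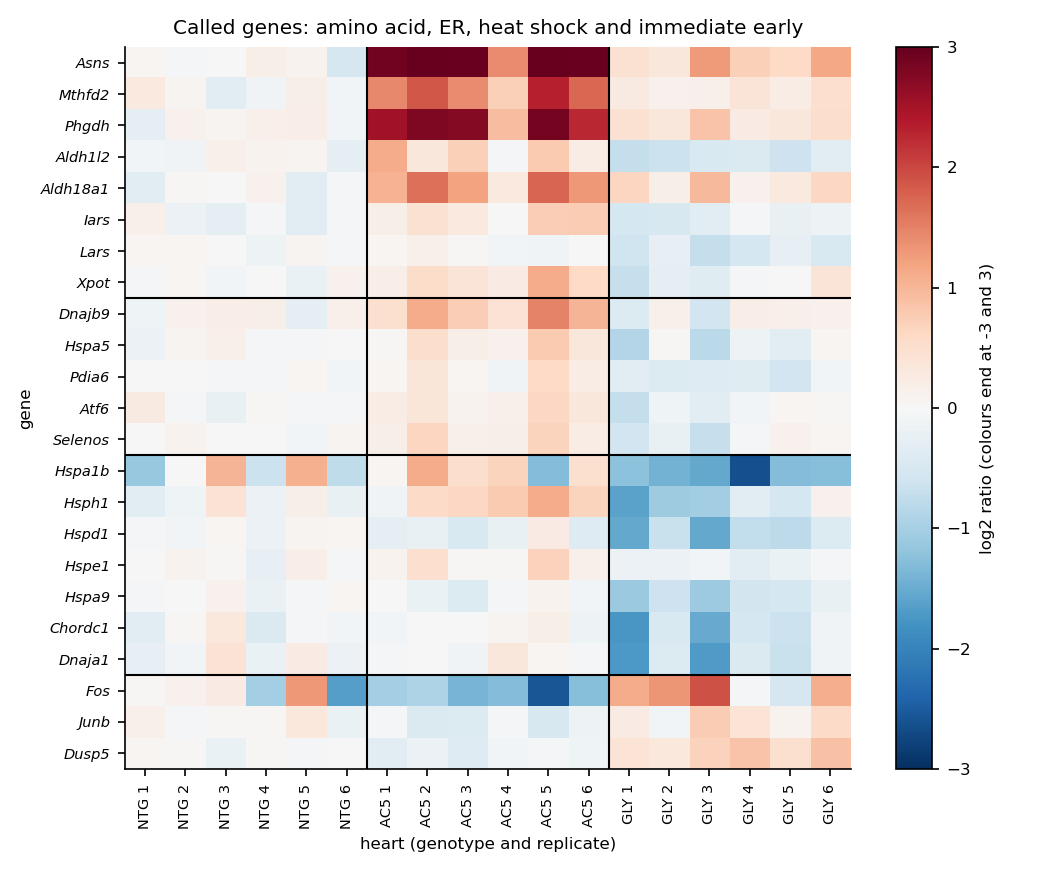
Log2 ratio of each heart (columns, by genotype and replicate) for the called genes of the amino acid, endoplasmic reticulum, heat shock and immediate early groups (rows); colours run from -3 to 3. Asns, Mthfd2 and Phgdh are red in all 6 AC5 hearts, palest in AC5 replicate 4, and Hspd1, Chordc1 and Dnaja1 are darkest blue in GLY replicates 1 and 3, while Hspa1b is lowest in GLY replicate 4.

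Some chaperones of the endoplasmic reticulum were also lower in GLY than in AC5. Of 27 genes of the endoplasmic reticulum folding list 5 were lower, 0 were higher and 22 were not called. The share called lower over all genes was 0.5%. The median difference was -0.24, or -0.17 and -0.31 in replicates 1 to 3 and 4 to 6 taken apart. Against NTG the list's median was -0.04 in GLY and 0.24 in AC5. Dnajb9, a co-chaperone induced by the unfolded protein response, lay from -0.58 to 0.19 in GLY (median 0.14) and at or above 0.44 in every AC5 heart (median 0.89). These ranges were apart and the difference was -0.94 ± 0.16 (adjusted p = 0.00327). Dnajb9 rose in AC5 against NTG by 0.84 ± 0.16 and was -0.10 ± 0.16 in GLY. Pdia6, which forms disulfide bonds, lay from -0.57 to -0.08 in GLY and from -0.11 to 0.59 in AC5. The ranges overlapped at their ends and the difference was -0.56 ± 0.11 (adjusted p = 0.0083). The other Pdia6 probe set gave 0.00 ± 0.09 and was not called. Hspa5, the chaperone BiP, lay from -0.89 to 0.05 in GLY and from 0.03 to 0.78 in AC5. It differed by -0.68 ± 0.14 (adjusted p = 0.0202). The other Hspa5 probe sets gave -0.63 ± 0.15 and 0.12 ± 0.10, neither of them called. Selenos, of the degradation pathway for misfolded proteins, differed by -0.57 ± 0.12 and all 3 of its probe sets were called. The calls of Hspa5 and Selenos were each lost without GLY replicate 3, AC5 replicate 2 or AC5 replicate 5 (adjusted p from 0.0576 to 0.0681). Atf6, a sensor of the response, differed by -0.49 ± 0.12, and its call was lost without any of GLY replicates 1, 3 and 4 and AC5 replicates 1, 2, 4, 5 and 6 (adjusted p from 0.0545 to 0.114). The other Atf6 probe sets gave -0.24 ± 0.13 and -0.41 ± 0.13, neither of them called. Hspa5, Selenos and Atf6 were also not called without GLY replicates 1 and 3 together (adjusted p from 0.128 to 0.236). The promoters of Hspa5 and Pdia6 are shown because both hold the letters of the endoplasmic reticulum stress element, in capitals, in 150 bases upstream of the start (chr2:34771940-34772089 and chr12:17266439-17266588, GRCm38.p6, plus strand).
Hspa5: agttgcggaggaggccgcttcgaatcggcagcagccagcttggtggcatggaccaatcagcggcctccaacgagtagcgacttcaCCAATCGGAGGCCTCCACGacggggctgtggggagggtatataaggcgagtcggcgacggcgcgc
Pdia6: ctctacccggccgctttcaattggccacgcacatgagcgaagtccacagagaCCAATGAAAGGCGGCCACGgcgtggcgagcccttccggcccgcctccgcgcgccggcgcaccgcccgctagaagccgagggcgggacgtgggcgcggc

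The element was searched on both strands as CCAAT and CCACG with 9 bases of any kind between them, and it began 65 and 98 bases before the start. It was found in 2 of the 4 called list genes with a window and in 0.113% of all windows.

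Some heat shock genes differed in the same direction. Of 26 genes of the cytosolic and mitochondrial heat shock list 6 were lower in GLY, 0 were higher and 20 were not called. Over all genes 0.5% were called lower and 0.357% higher. The median difference was -0.26, and each set of 3 replicates gave a similar median (-0.26 and -0.30). Against NTG the median was -0.25 in GLY and -0.01 in AC5. Hsph1, an Hsp110 exchange factor for Hsp70, lay from -1.17 to -0.00 in GLY (median -0.76) and from 0.08 to 0.89 in AC5 (median 0.53). The groups did not overlap at this probe set and the difference was -1.16 ± 0.19 (adjusted p = 0.00197). At the probe set of Hsph1 in the list the ranges overlapped, and the difference was -1.35 ± 0.23 (adjusted p = 0.00383). Hspa1b, an inducible Hsp70, lay from -2.64 to -1.23 in GLY (median -1.35) and from -1.30 to 1.12 in AC5 (median 0.50). AC5 replicate 5, at -1.30, was the AC5 heart within the GLY range. Hspa1b differed by -1.82 ± 0.39 (adjusted p = 0.0223), and the call was lost without any of GLY replicates 3 and 4 and AC5 replicates 2, 3, 4 and 6 (adjusted p from 0.0508 to 0.0686) and after quantile normalization (adjusted p = 0.471). Against NTG it was -1.49 ± 0.39 in GLY and 0.34 ± 0.39 in AC5, and the NTG hearts themselves ranged from -1.13 to 1.06.

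The mitochondrial chaperones and Chordc1 differed by less than Hsph1 and Hspa1b. Hspd1, the chaperonin Hsp60, lay from -1.55 to -0.41 in GLY (median -0.76) and from -0.46 to 0.24 in AC5 (median -0.25) and differed by -0.72 ± 0.15 (adjusted p = 0.0172). Hspa9, mitochondrial Hsp70, differed by -0.59 ± 0.12 (adjusted p = 0.0147), at 1 of 5 probe sets. Hspe1, the partner of Hspd1, differed by -0.42 ± 0.10 (adjusted p = 0.0361), and Chordc1, a co-chaperone of Hsp90, by -0.84 ± 0.19 (adjusted p = 0.032). The Hspd1 call was lost without GLY replicate 3 or AC5 replicate 5 (adjusted p = 0.0551 and 0.0517) and the Hspa9 call without GLY replicate 3 (adjusted p = 0.0507). The Hspe1 call was lost without any of GLY replicates 1, 3, 4 and 5 and AC5 replicates 2, 5 and 6 (adjusted p from 0.0517 to 0.107). The other Hspe1 probe set gave -0.37 ± 0.10 and was not called. The Chordc1 call was lost without GLY replicate 1 or 3 or any of the 6 AC5 replicates (adjusted p from 0.0519 to 0.101). Without GLY replicates 1 and 3 together none of these 4 was called (adjusted p from 0.0746 to 0.139), and the same held after quantile normalization (adjusted p from 0.0628 to 0.135). Dnaja1, an Hsp40, differed by -0.87 ± 0.21 at 1 of 3 probe sets, chosen after its values were seen, with the widest dependence on single hearts of the group (9 of 12 hearts, adjusted p from 0.0526 to 0.134). Hspa1a, nearly identical to Hspa1b in sequence, gave -1.27 and Hsp90aa1 -0.83, neither of them called, so probe sets for Hspa1a and Hspa1b may read both genes.

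The promoters of Hsph1 (chr5:149636337-149636486, minus strand), Hspa1b (chr17:34959239-34959388, minus strand) and Hspe1 (chr1:55087998-55088147, plus strand, GRCm38.p6) are shown because they hold heat shock elements, whose letters are in capitals. In Hspe1 3 matches overlap and form 1 run.
Hsph1: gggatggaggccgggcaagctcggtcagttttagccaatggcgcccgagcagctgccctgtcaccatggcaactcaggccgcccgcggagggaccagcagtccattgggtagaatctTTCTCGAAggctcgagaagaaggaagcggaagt
Hspa1b: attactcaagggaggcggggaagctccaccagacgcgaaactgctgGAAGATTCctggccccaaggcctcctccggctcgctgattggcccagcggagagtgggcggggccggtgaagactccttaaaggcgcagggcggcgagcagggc
Hspe1: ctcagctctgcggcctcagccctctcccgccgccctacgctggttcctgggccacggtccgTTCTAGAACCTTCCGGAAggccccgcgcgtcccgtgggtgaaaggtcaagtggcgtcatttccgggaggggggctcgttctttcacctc

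The element was searched on both strands as GAANNTTC or TTCNNGAA, which each read the same on either strand. Matches began 33 bases before the start in Hsph1, 104 in Hspa1b and 89, 84 and 79 in Hspe1. Of the 5 called genes of the list with a window 4 held a match in at least 1 window (Hsph1, Hspa1b, Hspe1 and Hspd1, the last in 1 of 2 windows) and Chordc1 held none, against 12.8% of all windows. The GAANNTTC and TGATGNAA patterns can overlap each other, as they do in Asns.

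A few immediate early genes were higher in GLY than in AC5. Of 29 genes of this list 3 were higher, 0 were lower and 26 were not called, and 23 of 29 were above 0. The share called higher over all genes was 0.357%. The median difference was 0.17, or 0.24 in replicates 1 to 3 and 0.15 in the other 3. Fos, a subunit of the transcription factor AP-1, lay from -0.51 to 1.91 in GLY (median 1.10) and from -2.56 to -0.93 in AC5 (median -1.29). All GLY hearts were above all AC5 hearts and the difference was 2.23 ± 0.40 (adjusted p = 0.00522), a 4.68-fold higher level. NTG hearts ranged from -1.65 to 1.30 for Fos, and neither GLY (0.97 ± 0.40) nor AC5 (-1.25 ± 0.40) was called against them. Dusp5, a phosphatase that inactivates ERK, lay from 0.31 to 0.88 in GLY (median 0.59) and from -0.40 to -0.06 in AC5 (median -0.15). It separated all hearts by 0.81 ± 0.10 (adjusted p = 8.52e-05), and it was called in each set of 3 replicates, with 0.78 in replicates 1 to 3 and 0.84 in the others. Junb, another AP-1 subunit, differed by 0.60 ± 0.12 (adjusted p = 0.0119), with GLY from -0.07 to 0.77 and AC5 from -0.47 to -0.03. Egr1 gave 0.57, Dusp1 0.49 and Nr4a1 0.48, none of them called. Klf2, a transcription factor named after its values were seen, lay from 0.25 to 0.72 in GLY and from -0.84 to 0.05 in AC5 and differed by 0.80 ± 0.15 (adjusted p = 0.00522). The promoter of Fos is shown (chr12:85473740-85473889, plus strand, GRCm38.p6) because 2 copies of the core of the CREB element, TGACG, in capitals, lie in 150 bases upstream of the start.
Fos: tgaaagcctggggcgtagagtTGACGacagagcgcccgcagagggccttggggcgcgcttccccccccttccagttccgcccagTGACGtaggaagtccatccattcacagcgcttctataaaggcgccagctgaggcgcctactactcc

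These copies began 129 and 66 bases before the start. The core, searched on both strands, occurred in the windows of all 3 called genes and in 17.8% of all windows. The full element TGACGTCA, which contains the core, occurred in 1.55% of all windows.

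Several transcripts were high in AC5 and were not called against NTG in GLY. Plcd1, a phospholipase C, lay from -0.31 to 0.20 in GLY (median -0.14) and from 1.28 to 3.35 in AC5 (median 1.91). The groups did not overlap and the difference was -2.20 ± 0.20 (adjusted p = 5.14e-07), at 1 of 2 probe sets, while the other gave -0.01 ± 0.08. Pcdh17, a protocadherin of cell adhesion, lay from -0.87 to 0.24 in GLY (median -0.58) and from 1.35 to 2.44 in AC5 (median 1.85), and both of its probe sets were called (-2.32 ± 0.20, adjusted p = 1.93e-07). In AC5 against NTG, Plcd1 rose by 2.06 ± 0.20 and Pcdh17 by 1.98 ± 0.20, with -0.14 ± 0.20 and -0.34 ± 0.20 in GLY. Myh7, the beta-myosin heavy chain of the fetal mouse heart, raised in failing hearts, lay from -0.92 to 0.21 in GLY (median -0.54) and from 0.52 to 1.48 in AC5 (median 1.08). It separated all hearts, with a difference of -1.55 ± 0.19 (adjusted p = 5.35e-05). Myh7 rose in AC5 by 0.94 ± 0.19 against NTG and was -0.61 ± 0.19 in GLY, which was not called (adjusted p = 0.062).

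**Figure D3:**
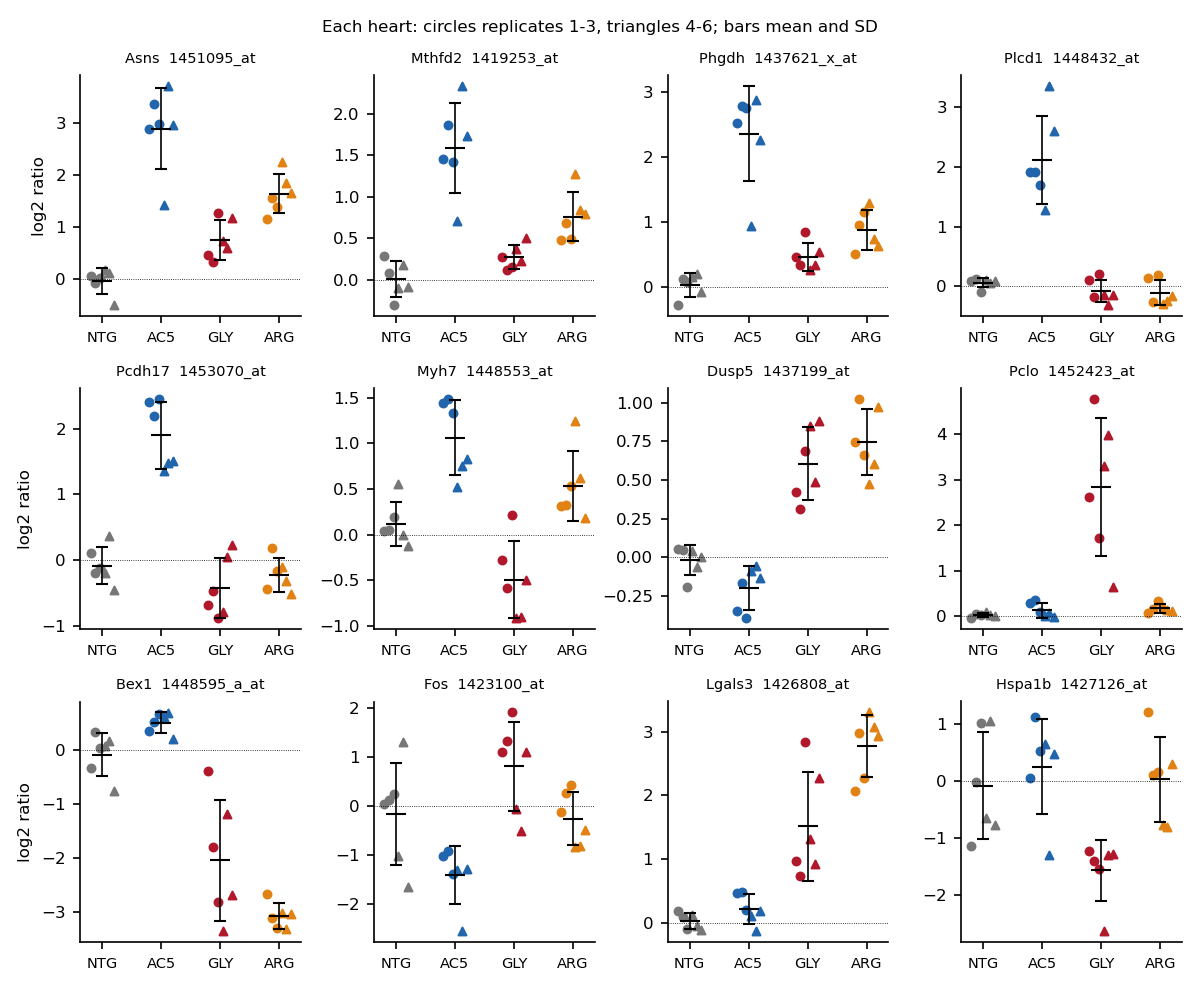
Log2 ratio (y axis) of every heart in the 4 genotypes for 12 named genes at the probe set given, circles for replicates 1 to 3 and triangles for 4 to 6, with mean and SD. AC5 hearts lie above all GLY hearts for Asns, Mthfd2, Phgdh, Plcd1, Pcdh17, Myh7 and Bex1, and below them for Dusp5, Pclo, Fos and Lgals3; for Hspa1b AC5 replicate 5 lies among the GLY hearts.

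A second set of transcripts changed against NTG in GLY and was not called against NTG in AC5. Pclo, a scaffold protein of the presynaptic zone, lay from 0.64 to 4.76 in GLY (median 2.96) and from -0.02 to 0.36 in AC5 (median 0.08). It differed by 2.70 ± 0.38 (adjusted p = 0.000302) at 1 of 3 probe sets, and ARG hearts, from 0.07 to 0.34, did not share it. Bex1, a brain-expressed gene of the X chromosome, lay from -3.36 to -0.38 in GLY (median -2.25) and from 0.20 to 0.69 in AC5 (median 0.56), a difference of -2.54 ± 0.31 (adjusted p = 5.09e-05). Lgi1, a secreted neuronal protein, lay from -3.02 to -0.86 in GLY (median -2.28) and from -0.60 to -0.03 in AC5 (median -0.22), a difference of -1.80 ± 0.29 (adjusted p = 0.00165), with both probe sets called. ARG hearts were low for both, from -3.31 to -2.66 for Bex1 and from -3.34 to -2.07 for Lgi1. Bex1 was 0.59 ± 0.31 in AC5 against NTG, which was not called (adjusted p = 0.745). For Bex1 the smallest change from NTG among the GLY hearts was in replicate 1. 3 probe sets without a gene symbol, chosen after their values were seen, were higher in GLY by 3.02 ± 0.36, 1.81 ± 0.33 and 1.62 ± 0.23, each without overlap.

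Smaller differences without overlap came from genes of varied function. Ints5, of the Integrator complex, lay from -0.12 to 1.38 in GLY and from -1.51 to -0.47 in AC5, a difference of 1.19 ± 0.19 (adjusted p = 0.0013) at 1 of 3 probe sets. Dct, a melanin enzyme, differed by 1.15 ± 0.20 (adjusted p = 0.00487), with GLY from 0.56 to 2.07 and AC5 from -0.11 to 0.45. Eppk1, a cytoskeletal linker, was higher in GLY by 1.10 ± 0.22, Rtl3 by 0.96 ± 0.15 and Sh3rf1, a ubiquitin ligase, by 0.91 ± 0.16 at 1 of 5 probe sets. Krt18, a keratin of simple epithelia, was higher by 0.91 ± 0.20, but this call was lost without GLY replicate 3 or 4 or AC5 replicate 1, 5 or 6 (adjusted p from 0.0547 to 0.081). On the other side, Gbp6, an interferon-induced GTPase, differed by -1.14 ± 0.18 (adjusted p = 0.00131) at both probe sets. Slc5a3, the sodium and myo-inositol cotransporter, differed by -1.10 ± 0.21 at 1 of 3 probe sets (adjusted p = 0.0081, 0.217 after quantile normalization). Fam107a, an actin-associated stress gene, differed by -1.10 ± 0.24, while its other probe sets gave -0.65 ± 0.18 and -0.37 ± 0.16, neither called. The Fam107a call was lost without GLY replicate 1 or AC5 replicate 2, 4, 5 or 6 (adjusted p from 0.0604 to 0.0674).

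Genes of muscle and hypertrophy split. Of 20 genes of the fetal and hypertrophy list 1 was higher in GLY, 2 were lower and 17 were not called. The list's median was 0.07. Over all genes 0.357% were called higher and 0.5% lower. Acta1, skeletal alpha-actin, lay from -3.79 to -0.60 in GLY (median -2.17) and from -1.08 to 0.20 in AC5 (median -0.33), with overlap. It differed by -1.69 ± 0.36 (adjusted p = 0.0223), and the call was lost without GLY replicate 3 or AC5 replicate 2, 5 or 6 (adjusted p from 0.0557 to 0.0637) and after quantile normalization (adjusted p = 0.455). Acta1 is also a skeletal muscle marker, and none of the other 11 such markers was called. Fhl1, a LIM protein of the sarcomere, was higher in GLY by 0.67 ± 0.15, with overlap. Its other probe set gave 0.08 ± 0.10 and was not called. The Fhl1 call was lost without any of GLY replicates 3 and 4 and AC5 replicates 1, 2, 3, 4 and 6 (adjusted p from 0.054 to 0.0767). The atrial genes Myl7 (1.08), Myl4 (0.75) and Nppa (0.64) were not called, and the 10 atrium markers had a median of 0.24 with 0 called. Of 29 sarcomere genes 1 was called. Mylk4, a myosin kinase, differed by -0.76 ± 0.18 and lost its call without any of GLY replicates 3, 4 and 6 and AC5 replicates 1, 2, 4, 5 and 6 (adjusted p from 0.0578 to 0.115). Of 27 calcium handling genes 1 was lower, Asph, which encodes junctin and aspartyl hydroxylase (-0.52 ± 0.10, adjusted p = 0.0133), at 1 of 6 probe sets. Rrad, a GTPase that restrains the L-type calcium channel, was named after its values were seen and was higher in GLY by 0.76 ± 0.16 (adjusted p = 0.0164, or 0.054 without GLY replicate 3).

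Genes of matrix turnover and inflammation were changed in few members. Of 30 matricellular and matrix turnover genes 2 were higher, 1 was lower and 27 were not called (median 0.14). The shares over all genes were 0.357% higher and 0.5% lower. Lgals3 (galectin-3), a lectin made by macrophages, lay from 0.74 to 2.84 in GLY (median 1.15) and from -0.14 to 0.48 in AC5 (median 0.20), without overlap. It was higher in GLY by 1.29 ± 0.26 (adjusted p = 0.0133, or 0.0965 with the 12 arrays alone). Timp1, an inhibitor of matrix metalloproteinases, lay from 0.42 to 2.21 in GLY (median 1.11) and from -0.07 to 0.34 in AC5 (median 0.12) and was higher by 1.13 ± 0.26 (adjusted p = 0.0343). Timp4, a related inhibitor, moved the other way, from -1.57 to -0.17 in GLY (median -0.90) and from -0.25 to 1.63 in AC5 (median 0.56). The difference was -1.47 ± 0.25 (adjusted p = 0.0036), while the other Timp4 probe set gave -0.52 ± 0.16 and was not called. Ccl8, a chemokine for monocytes, was the called gene among 38 of the inflammation list, higher in GLY by 1.44 ± 0.34 (adjusted p = 0.0434) with GLY from 0.42 to 2.95 and AC5 from -0.14 to 0.34. The Timp1 call was lost without any of GLY replicates 3, 4 and 6 and the 6 AC5 replicates (adjusted p from 0.0535 to 0.108), and the Ccl8 call without any of GLY replicates 3 to 6 and the 6 AC5 replicates (adjusted p from 0.0534 to 0.131).

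Markers of other cells of the heart were read beside these genes. Of 13 fibroblast markers 2 were higher in GLY and 0 were lower, beside 0.357% and 0.5% of all genes. The median of the 13 was 0.24 (0.20 and 0.43 in the sets of replicates 1 to 3 and 4 to 6). The median of these markers in single hearts ran from -0.14 to 0.48 in GLY and from -0.27 to -0.07 in AC5. Mfap5, a microfibril protein, was higher in GLY by 0.69 ± 0.15 and Vim, the intermediate filament vimentin, by 0.48 ± 0.11, and neither overlapped. The other Mfap5 probe set gave 0.46 ± 0.17 and was not called. The Mfap5 call was lost without GLY replicate 3 or any of the 6 AC5 replicates (adjusted p from 0.0547 to 0.0946) and the Vim call without any of GLY replicates 3, 4 and 6 and AC5 replicates 1 to 5 (adjusted p from 0.0559 to 0.0897). Col1a1 (0.50), Col1a2 (0.48) and Col3a1 (0.67) were not called, and Mfap5 was the called gene among 29 collagens and matrix proteins (median 0.20). Of 17 macrophage markers 0 were called, with a median of 0.09, 11 above 0 and 6 below, from Fcgr1 at 0.53 to Cd163 at -0.45. The macrophage median was -0.06 in replicates 1 to 3 and 0.28 in the others. Of 15 endothelial and 12 lymphocyte markers 0 were called at the listed probe set, and 1 endothelial marker was called lower at another. In RNA of the whole heart, more cells of a type and more transcript per cell cannot be told apart, and the part of these markers in the results was not tested.

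**Figure D4:**
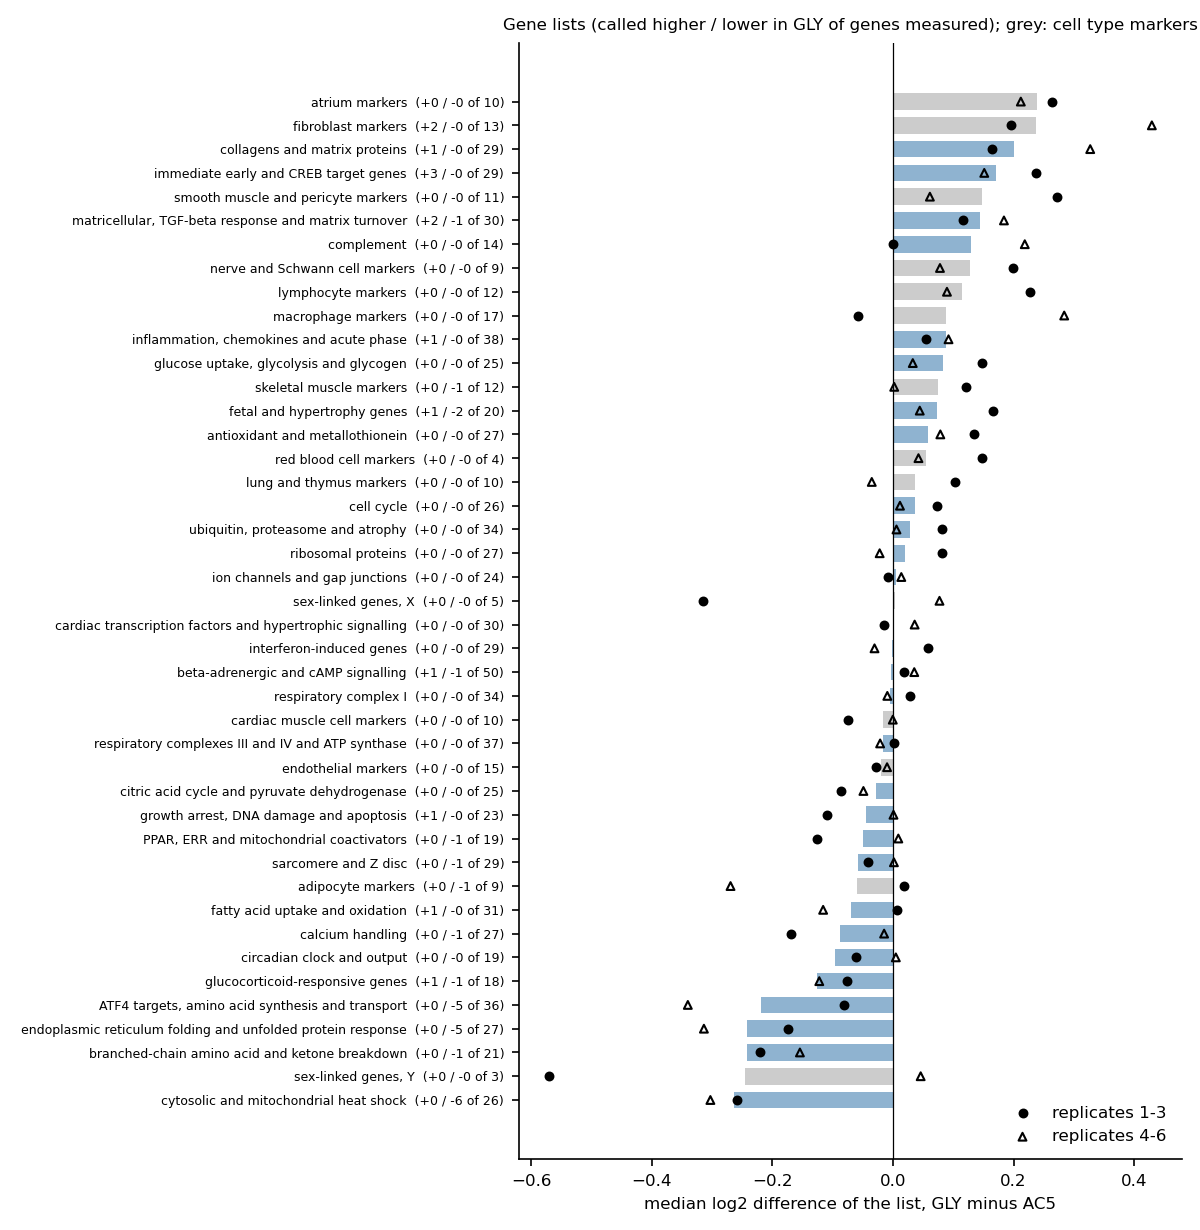
Median log2 difference, GLY minus AC5, of each gene list (bars, blue for function and grey for cell type markers), with circles and triangles for the medians within replicates 1 to 3 and 4 to 6; numbers give the genes called higher (+) and lower (-) of those measured. Heat shock (-0.26), endoplasmic reticulum (-0.24) and ATF4 (-0.22) lists lie at the lower end with 6, 5 and 5 genes called lower, and the Y-linked genes differ most between the sets (-0.57 and 0.05).

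Genes of fuel use were mostly not called, and over all genes 0.857% were called. Of 31 fatty acid genes 1 was called, Pdk4, the kinase that switches off pyruvate dehydrogenase, which lay from -0.26 to 0.13 in GLY (median 0.07) and from -1.49 to 0.18 in AC5 (median -0.90). It was higher in GLY by 0.83 ± 0.18 (adjusted p = 0.0224), and the call was lost without GLY replicate 4 or AC5 replicate 2, 3 or 5 (adjusted p from 0.051 to 0.0682). Of 21 genes of branched-chain amino acid and ketone breakdown 1 was lower in GLY and 18 were below 0, with a median of -0.24. Acat1, mitochondrial acetoacetyl-CoA thiolase, fell against NTG in both (-1.07 ± 0.11 in GLY and -0.56 ± 0.11 in AC5) and differed by -0.51 ± 0.11 between them without overlap (adjusted p = 0.0214). That call was lost without GLY replicate 3 or AC5 replicate 1, 4 or 6 (adjusted p from 0.0517 to 0.066) and after quantile normalization (adjusted p = 0.852). The other Acat1 probe sets gave -0.32 ± 0.10 and -0.32 ± 0.10, neither of them called. Ivd, of leucine breakdown, and Abat, of GABA breakdown, were named after their values were seen. At the probe set chosen for each, both fell in both genotypes against NTG. They differed between GLY and AC5 by -0.69 ± 0.12 and -0.67 ± 0.09, with no overlap. After quantile normalization neither of these was called (adjusted p = 0.582 and 0.315). The other probe sets of Ivd and Abat gave -0.35 ± 0.09 and -0.10 ± 0.10 between GLY and AC5, neither called. Against NTG the other Abat probe set did not fall (0.06 in GLY and 0.16 in AC5). Pparg, the regulator of fat storage and an adipocyte marker, differed by -0.44 ± 0.11 and lost its call without any of GLY replicates 3 to 5 and AC5 replicates 1, 2, 4, 5 and 6 (adjusted p from 0.0675 to 0.134). Klf9, a glucocorticoid-responsive factor, differed by -0.73 ± 0.17 at 1 of 7 probe sets and lost its call without GLY replicate 1 or 3 or AC5 replicate 1, 2, 3 or 4 (adjusted p from 0.0595 to 0.0997).

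Of 29 function lists 13 held no called gene. They were the citric acid cycle (25 genes measured, median -0.03), respiratory complex I (34, -0.00), complexes III and IV with ATP synthase (37, -0.02), glycolysis (25, 0.08), ion channels (24, 0.00), cardiac transcription factors (30, -0.00), antioxidant genes (27, 0.06), ubiquitin and proteasome (34, 0.03), ribosomal proteins (27, 0.02), complement (14, 0.13), interferon-induced genes (29, -0.00), the circadian clock (19, -0.10) and the cell cycle (26, 0.04). At other probe sets, 1 gene of the ion channel list and 1 of the cell cycle list were called lower. In the ubiquitin and proteasome list 1 gene was called higher in this way. At unadjusted p under 0.05, 5306 of all probe sets (11.8%) differed between GLY and AC5. The absence of a call in these lists therefore does not show equal levels. Among probe sets with 1 gene symbol called between GLY and AC5, none was called in both genotypes against NTG in opposite directions.

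The 3 hearts per genotype of replicates 1 to 3 and those of replicates 4 to 6 are different animals and were read apart. Within replicates 1 to 3, 94 probe sets were called (0.209%), 22 higher (0.0488%) and 72 lower (0.16%) in GLY, and within replicates 4 to 6, 16 (0.0355%), 7 higher (0.0155%) and 9 lower (0.02%). Of the 94, 87 (92.6%) differed in the same direction in replicates 4 to 6, where 50.7% of all probe sets had the same direction in both sets. Their median size was 0.99 within replicates 1 to 3 and 0.37 in replicates 4 to 6. All 16 probe sets called within replicates 4 to 6 had the same direction in replicates 1 to 3, with a median size of 1.54 in each. 9 probe sets were called in both sets, among them those of Hsph1, Dusp5, Plcd1, Myh7 and Bex1, both of Pcdh17 and 1 without a symbol. For Asns the differences were -2.39 and -1.87 in the sets, for Phgdh -2.14 and -1.65 and for Fos 2.56 and 1.89. The difference between the sets, tested by the interaction of genotype and set, was called for 0 probe sets (limma, smallest adjusted p = 0.331), while 5363 (11.9%) had an unadjusted p under 0.05.

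**Figure D5:**
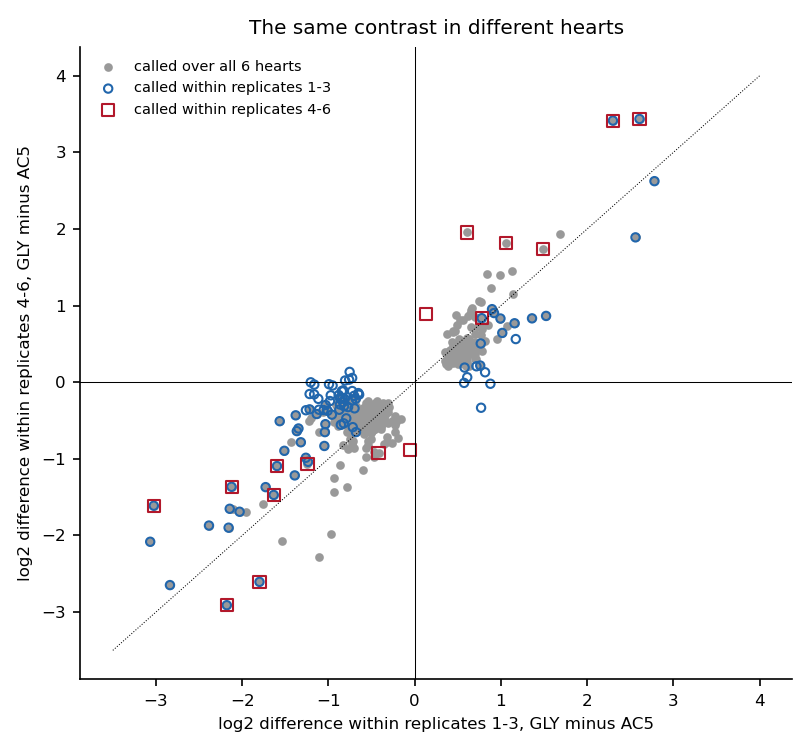
Difference between GLY and AC5 (log2) within replicates 1 to 3 (x axis) and within replicates 4 to 6 (y axis), 3 hearts per genotype in each, for probe sets called over all 6 hearts (grey), within replicates 1 to 3 (blue circles, 94) or within replicates 4 to 6 (red squares, 16). The 9 probe sets with both marks have the same direction in both sets and a size of 0.78 or more in each, and many blue circles lie closer to 0 on the y axis, with a median size of 0.37 there.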

How the data were processed

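Hearts of 24 mice (4 genotypes, 6 each) were measured on Affymetrix arrays from Trizol RNA, per the labels' protocols. RMA is named in the submitters' processing notes, its version not given in the sources used here. Each deposited value is a ratio. That ratios are linear and relative to the non-transgenic level was read from the values. The divisor is not stated, and no signal level remains, so no probe set was left out as dim.

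Of 45101 probe sets, 64 controls were left out and 45037 tested. Of these 34945 had 1 gene symbol (18193 genes, 18032 matched by Entrez identifier), 932 several and 9160 none. Log2 ratios of all 24 arrays were fitted with limma 3.58.1 (R 4.3.3), 1 mean per genotype, contrast GLY minus AC5, Benjamini-Hochberg over all probe sets, called at adjusted p under 0.05. Each difference is log2 ± SE. The number of arrays limits the precision. The spread is shared by the 4 genotypes. Tables and plots came from matplotlib 3.10.9, numpy 2.4.6 and pandas 2.3.3 under Python 3.11.15. The fit was tested on simulated data.

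The comparison, the 43 lists (994 genes, 901 matched) and the rules were chosen with earlier results of these data known. Named were, among called, non-overlapping probe sets with 1 symbol, the 12 furthest up and the 12 furthest down, then the largest called rise and fall of each list, Adcy5 and Myh6. This gave 39 genes. 4 places for genes called against NTG in opposite directions stayed empty. A further 15 called list members and 23 probe sets were named after their values were seen. Lists use 1 probe set per gene, by suffix and then lowest number. 2 genes are not reported here. Promoters are RefSeq sequences of GRCm38.p6, and windows for Lars, Hspa9 and Atf6 were not used here.

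Same-numbered arrays of the genotypes did not deviate together (r from -0.08 to 0.32, above 0.1 in 3 of 6 pairs), so the numbers were not taken as pairs. The 3' minus 5' difference of the actin control lay from 0.04 to 0.16 in GLY and from -0.12 to 0.15 in AC5 on the log2 scale. Each value was already a ratio, so such a difference is relative to the non-transgenic level and does not show how intact the RNA was. The Gapdh control lay from -0.01 to 0.16 in GLY and from -0.01 to 0.06 in AC5. Other controls varied more. The transferrin receptor control lay from -0.83 to -0.18 in GLY and from -0.80 to 0.05 in AC5. For pyruvate carboxylase the ranges were -0.32 to 0.06 and -0.07 to 0.14. Alternatives covered the arrays fitted, blocks and sets, scaling, weights, the log transform, the probe sets tested and each replicate.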

Additional observations from a re-analysis of the deposited data

Results flagged for a closer look

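In 7 of 154 groups of 6 hearts, 1 heart lay far from the other 5 by Dixon's test (4.55%). The test flags about 1 in 20 groups by chance. 4 of the 7 were in AC5 replicate 5. In that heart Fos, a subunit of AP-1, was at -2.56, with the other AC5 hearts from -1.39 to -0.93. Ints5, of the Integrator complex, was at -1.51, with the others from -0.75 to -0.47. Hspd1, the mitochondrial chaperonin, was at 0.24, with the others from -0.46 to -0.22. P4ha1, a collagen prolyl hydroxylase, was at 1.21, with the others from 0.31 to 0.57. AC5 replicate 4 was the low heart for both enzymes of amino acid synthesis. Asns was at 1.43 there, against 2.88 to 3.70 in the other AC5 hearts, and Phgdh was at 0.94, against 2.26 to 2.87. In both genes this heart was still above every GLY heart at the probe set read. In GLY replicate 4 the heat shock gene Hspa1b was at -2.64, with the other GLY hearts from -1.54 to -1.23.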

How the results depend on the processing

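Each called difference of a named gene kept its direction under each alternative run, and the sign turned for Myh6 alone, which was not called: its difference was 0.022 with array weights and from -0.302 to 0.000787 with 1 heart left out, the highest without GLY replicate 2. Of the gene differences under alternatives, 1676 kept direction and side of the threshold and 378 lost the call. Of list medians, 968 moved by less than the spread between arrays and 21 by more. Leaving out 1 heart gave 157 to 583 calls, 51 to 191 higher and 106 to 414 lower in GLY. Without GLY replicate 2, 191 were higher. The 12 arrays alone gave 126 (49 higher, 77 lower), replicates 1-3 gave 94 (22 and 72), replicates 4-6 gave 16 (7 and 9), quantile normalization 165 (62 and 103), a set term 424 (161 and 263), 1 probe set per gene 205 (94 and 111), GLY replicates 1 and 3 left out 221 (102 and 119) and a minimum of 1.5-fold 142 (50 and 92). With array medians set to 0, 321 were called, 80 higher and 241 lower, so that 24.9% were higher in place of 36.9%. Array weights gave 380, a weight per genotype 223, the robust step 298, log2(ratio + 0.1) 313, probe sets with 1 symbol 301 and the more variable probe sets 377. With the replicate number as a block, 322 were called (115 and 207), and 1 of 12 arrays correlated best with its own number in the other genotype. The calls of Aldh18a1 (adjusted p = 0.0593), Dnaja1 (0.0565) and the listed Phgdh probe set (0.0516) were lost under the block. The ratios hold no signal over background, so what it limits is unknown. The causes of these shifts were not tested.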

Other observations

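Other called genes, chosen after their values were seen, fell outside the groups described. Cdo1, which oxidises cysteine, lay from 0.36 to 2.44 in GLY and from -0.31 to 0.64 in AC5 and was higher in GLY by 1.19 ± 0.24 (n = 6 hearts per genotype, limma, adjusted p = 0.0128). Aqp4, a water channel, lay from -0.51 to 1.93 in GLY and from -0.69 to 0.04 in AC5, and 2 of its 3 probe sets were called, with a difference of 1.28 ± 0.28 (adjusted p = 0.0233). The Aqp4 difference came to 0.60 in replicates 1 to 3 and to 1.95 in the other 3, and its call was lost without GLY replicate 4 or AC5 replicate 1, 2, 5 or 6 (adjusted p from 0.0502 to 0.0612). Pdpn, podoplanin, a marker of lymphatic vessels and activated stromal cells, was higher in every GLY heart than in any AC5 heart, by 0.56 ± 0.10. S100a6, a calcium-binding protein, was likewise higher, by 0.61 ± 0.12.

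Lower in GLY were Zbtb16 (-1.08 ± 0.22, 1 of 3 probe sets), a transcription factor that responds to glucocorticoids, and P4ha1 (-0.71 ± 0.13), each without overlap. The other P4ha1 probe set gave -0.43 ± 0.11 and was not called. Rgcc, a regulator of the cell cycle, differed by -0.82 ± 0.14, and both of its probe sets were called. Cxadr, the coxsackievirus and adenovirus receptor of cell junctions, differed by -0.88 ± 0.16 at 2 of 5 probe sets, and Acss1, mitochondrial acetyl-CoA synthetase, by -0.79 ± 0.14 at 1 of 3. Against NTG, Cxadr was -0.94 ± 0.16 in GLY and -0.05 ± 0.16 in AC5, and Zbtb16 was -0.15 ± 0.22 in GLY and 0.93 ± 0.22 in AC5.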
